A study of Arabidopsis thaliana with 8 samples.

Results

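Whole siliques of the Arabidopsis thaliana mutant clf-28 were compared with siliques of wild-type (wt) plants, with 1 RNA-seq library for each genotype. Both genotypes were in the Col-0 ecotype, and the silique material came from 5-week-old plants grown in soil under long days at 22 °C. The deposited table held 34759 transcript records with a level in FPKM, fragments per kilobase of transcript scaled to the mapped fragments of the library, which is a per-length scale. Of these, 20892 were measured in siliques, which means that the authors' software marked both silique libraries as OK and that at least 1 of them reached 1 FPKM. The series holds 8 libraries in all, from roots and leaves of 2-week-old seedlings grown on MS plates and from flowers and siliques of 5-week-old plants, in clf-28 and in wt. The labels do not give the age of the siliques, the stage of the seeds in them or the number of plants pooled.

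CLF (CURLY LEAF) is a histone methyltransferase of Polycomb repressive complex 2, which places the repressive mark H3K27me3 on genes that are to stay silent in a tissue. It acts beside a close relative, SWN, and its absence is best known for ectopic expression of floral genes such as AG in leaves. The silique is the fruit of Arabidopsis, a green photosynthetic wall around seeds, and a library of whole siliques mixes wall, seed coat, endosperm and embryo. As seeds mature, the regulators LEC1, ABI3, FUS3 and LEC2 switch on genes for storage proteins, oil and proteins that protect against drying. A difference in whole siliques cannot be told apart between more cells of a type and more RNA per cell. Seed stage and genotype cannot be told apart either, because no label ties the 2 libraries to the same stage.

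The clf-28 silique library was set apart from the wt library by a large set of seed maturation transcripts that were high in clf-28 and nearly unread in wt. The ratio is given throughout as log2((clf-28 FPKM + 1)/(wt FPKM + 1)), so a positive value means a higher level in clf-28. Over the 20892 measured records, 2382 (11.4%) were at least 2-fold higher in clf-28 and 1671 (8.0%) were at least 2-fold lower. Each list count below is to be read against these shares, and a count near them does not set a list apart. The median log2 ratio was -0.01 and the quartiles lay at -0.39 and 0.38, so most records sat close to equal. The tails were uneven, with 393 records at least 8-fold higher and 18 at least 8-fold lower. With 1 library for each genotype these counts have no replicate check and carry no test. Near the limit of 2-fold, 237 records had a log2 ratio of 1 to 1.1 and 324 a ratio of 0.9 to 1, and near the limit of expression the nearest records inside and outside had 1.001 and 0.9991 FPKM.

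The authors' software also gave an interval for each level, and these intervals were wide, with a lower bound of 0 for 91.4% of measured records in clf-28 and 91.6% in wt. The intervals of both libraries were apart for 41 records that were higher in clf-28 (0.196%) and for 1 that was lower (0.00479%). The higher ones included FUS3, DOG1, SUS2, TT10, AGL67, AIL5 and NSP2, and the 1 lower record was BAS, a terpenoid cyclase, at 6.89 FPKM in clf-28 and 60.8 FPKM in wt. Among 1223 records at 100 FPKM or more in wt, 2.45% were at least 2-fold higher and 24.9% at least 2-fold lower, with a median of -0.46; the wt level itself enters the ratio. The summed FPKM of the 2 libraries was close, at 700965 in clf-28 and 715547 in wt. Read depth is not given in the sources used here.

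**Figure D1:**
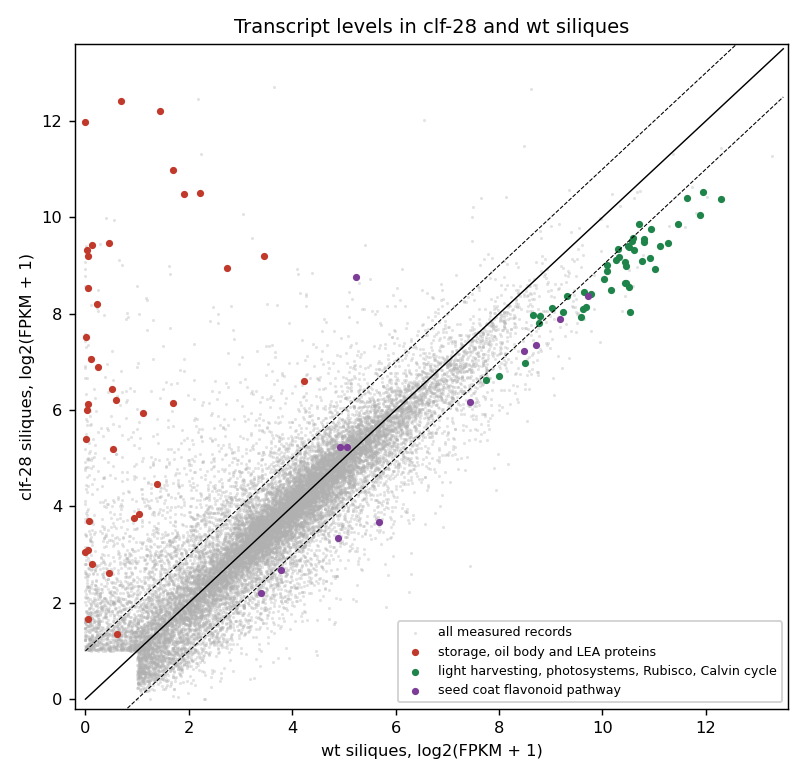
Level of each of the 20892 measured records in clf-28 siliques (vertical axis) and wt siliques (horizontal axis), both as log2(FPKM + 1), with 1 library each; the solid line marks equal levels and the dashed lines a 2-fold difference. Storage, oil body and LEA genes (red) stood far above the line near the left edge, while the photosynthesis genes (green) lay below it at high levels.

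CLF itself was not lower in the mutant library, at 15.1 FPKM in clf-28 siliques and 6.53 FPKM in wt siliques, with overlapping intervals. A level over the whole gene does not check an allele that can leave part of a transcript, so it does not test the genotype label. A pair of genes that were low in clf-28 in every organ were also low here: AT3G01345 stood at 0.82 FPKM in clf-28 and 14.4 FPKM in wt, and MRD1 at 0.365 FPKM in clf-28 and 5.14 FPKM in wt. AT4G13575 went the other way, with 25.1 FPKM in clf-28 siliques and 0.754 FPKM in wt siliques. These 3 genes were chosen after their values were seen. Of 9 measured subunits and partners of Polycomb repressive complex 2, 1 (CLF) was at least 2-fold higher and none lower, with a median of 0.16. SWN, the other methyltransferase of vegetative tissue, had 28.4 FPKM in clf-28 and 27.4 FPKM in wt, and the seed-specific methyltransferase MEA had 2.53 FPKM in clf-28 and 1.19 FPKM in wt. FIS2, the zinc-finger partner of MEA in the endosperm, had 1.26 FPKM in clf-28 and 2.95 FPKM in wt, with overlapping intervals. Its log2 ratio of -0.807 fell short of the 2-fold limit. The silique effect of FIS2 was lower than in the other organs by the test described further on (limma adjusted p = 0.049). Outside siliques FIS2 had at most 0.437 FPKM, and such low levels hold down the spread that this p rests on.

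Among 15 measured genes for PRC1, readers of the mark and opposing factors, 4 were at least 2-fold higher in clf-28 and none lower, with a median of 0.38. Over all measured records 11.4% were higher and 8.0% lower. The 4 were HSI2 (VAL1), a B3-domain repressor of seed genes, at 21.7 FPKM in clf-28 and 8.51 FPKM in wt, the ring-finger proteins DRIP2 and RING1A, and ULT1, an antagonist of CLF. DRIP2 had 15.5 FPKM in clf-28 and 5.88 FPKM in wt, though several records name it and the value is uncertain, and RING1A had 8.81 FPKM in clf-28 and 3.33 FPKM in wt. ULT1 had 36.1 FPKM in clf-28 and 14.1 FPKM in wt. The relative of HSI2, HSL1, was near equal at 14.8 FPKM in clf-28 and 14.4 FPKM in wt, though several records name it too and the value is uncertain.

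The lists with the largest medians were proteins that fill the maturing seed. All 7 measured storage protein genes and all 9 oil body genes were at least 2-fold higher in clf-28, with medians of 9.28 and 8.29, against 11.4% of all measured records and a median of -0.01. SESA1 and SESA5, which encode 2S albumins that store nitrogen and sulphur, reached 5464 and 4028 FPKM in clf-28, against 0.60 and 0 FPKM in wt. OLEO1, the main oleosin that coats oil bodies, had 4714 FPKM in clf-28 and 1.74 FPKM in wt. Together with the LEA list described further on, 36 measured genes summed to 24580 FPKM in clf-28, or 3.51% of the library's total, and to 54.7 FPKM in wt, or 0.00765%. Of the 36, 35 were at least 2-fold higher.

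The storage sum is an underestimate in clf-28, since 6 further storage genes exceeded the read limit of the authors' software there and are listed at 0 with the status HIDATA. They are the 12S globulin genes CRA1, CRU2 and CRU3 and the 2S albumin genes SESA2, SESA3 and SESA4, and all were readable in wt, between 0.0214 FPKM (CRU2) and 0.648 FPKM (CRA1). A seventh record with this status in clf-28 was EPR1, an extensin of the endosperm, at 8.37 FPKM in wt. In wt, 17 records carried the status, among them RBCS1A and CAB1, whose clf-28 levels were 4903 and 3412 FPKM. Most of the 17 shared 1 merged span on chromosome 4 (7542233-7584630), where the status does not show that each gene was abundant. AT4G12915 in that span, for example, had 0 FPKM in clf-28 siliques. These 24 records enter no count above. The SESA genes are close copies of each other, so the split of reads between them is uncertain.

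The sequences before the start of a few genes are shown because they hold, or in 1 case lack, letters known from seed promoters; these genes were chosen after their values and matches were seen. Each is the 250 bases before the start that RefSeq annotates, read from its TAIR10.1 genome along the strand of the gene, with matches in capitals. Capitals mark the RY core, CATGCA or its reverse complement TGCATG, and the G-box core, CACGTG, which is its own reverse complement. The B3-domain regulators FUS3, ABI3 and LEC2 are known to bind the RY element, and bZIP factors the G-box. SESA1 lies on the plus strand (chr4:13607079-13607328), SESA5 on the minus strand (chr5:22239188-22239437), and OLEO1 (chr4:12900180-12900429) and CRU3 (chr4:14087306-14087555) on the plus strand. AT1G62080 on the minus strand (chr1:22946950-22947199) is shown as the most abundant measured record of the clf-28 library with neither match.
SESA1: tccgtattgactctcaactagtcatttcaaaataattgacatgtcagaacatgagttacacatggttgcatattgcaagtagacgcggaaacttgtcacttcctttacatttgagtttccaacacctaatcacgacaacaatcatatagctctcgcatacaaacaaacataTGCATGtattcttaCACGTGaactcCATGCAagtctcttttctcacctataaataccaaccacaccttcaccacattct
SESA5: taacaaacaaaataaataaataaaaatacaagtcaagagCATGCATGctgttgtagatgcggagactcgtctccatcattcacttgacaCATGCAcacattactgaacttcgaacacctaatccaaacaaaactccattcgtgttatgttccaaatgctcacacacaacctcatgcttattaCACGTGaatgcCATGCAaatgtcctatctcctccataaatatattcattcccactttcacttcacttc
OLEO1: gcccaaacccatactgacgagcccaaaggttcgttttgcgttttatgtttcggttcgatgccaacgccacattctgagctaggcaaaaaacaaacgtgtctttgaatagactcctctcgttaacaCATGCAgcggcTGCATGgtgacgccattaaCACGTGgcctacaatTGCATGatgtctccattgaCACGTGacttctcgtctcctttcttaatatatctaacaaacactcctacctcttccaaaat
CRU3: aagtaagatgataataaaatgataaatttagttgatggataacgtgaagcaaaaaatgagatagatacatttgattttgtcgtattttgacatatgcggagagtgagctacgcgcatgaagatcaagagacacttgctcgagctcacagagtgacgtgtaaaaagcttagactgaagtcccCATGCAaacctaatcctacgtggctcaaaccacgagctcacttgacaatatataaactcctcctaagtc
AT1G62080: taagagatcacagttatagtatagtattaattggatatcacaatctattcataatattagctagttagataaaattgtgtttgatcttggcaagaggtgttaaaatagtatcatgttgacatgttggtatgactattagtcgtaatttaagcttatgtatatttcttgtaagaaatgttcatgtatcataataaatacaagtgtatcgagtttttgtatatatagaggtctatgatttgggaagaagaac

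SESA5 held 4 RY core matches, OLEO1 3, SESA1 2 and CRU3 1. Over the whole lists, 11 of 13 storage genes (84.6%) and 9 of 9 oil body genes held an RY core match in this window, against 2314 of 27437 protein-coding genes (8.43%). The G-box core was in 8 of 13 storage genes (61.5%) and 3 of 9 oil body genes (33.3%), against 6.49% of all protein-coding genes. The LEA list had the opposite balance, with the RY core in 5 of 21 genes (23.8%) and the G-box core in 15 of 21 (71.4%). Among genes at least 8-fold higher in clf-28 siliques, 107 of 378 (28.3%) held the RY core, while among genes at least 2-fold lower 151 of 1505 did. Overlapping matches in both directions were each counted. A match is only a run of letters, and some RefSeq starts differ from those of the deposited records.

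**Figure D2:**
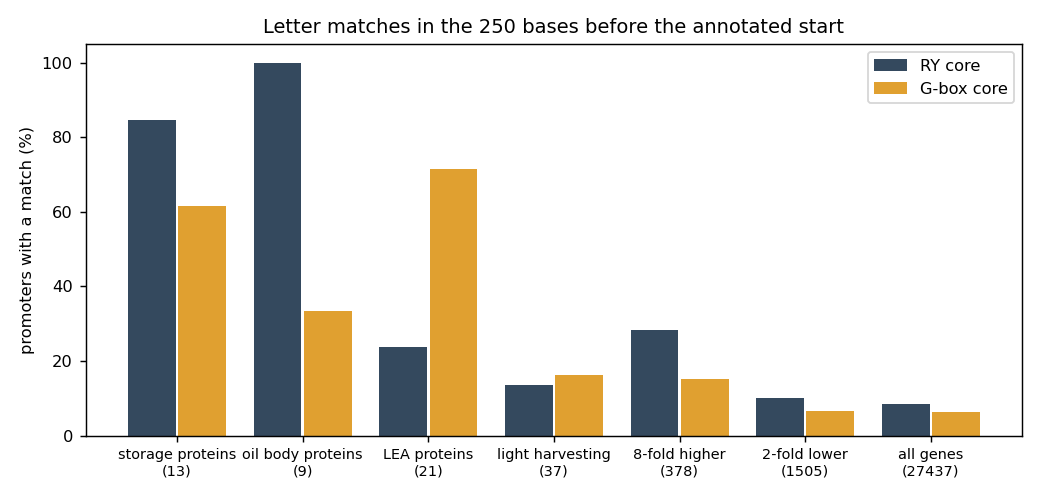
Percentage of promoters (250 bases before the RefSeq start) with at least 1 RY core match (dark bars) or G-box core match (yellow bars) in 4 gene lists, in 2 sets chosen by the silique ratio and in all protein-coding genes, with the number of promoters in brackets. The RY core was in 84.6% of storage and 9 of 9 oil body promoters, against 8.43% of all, and the G-box core in 71.4% of LEA promoters, against 6.49% of all.

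The other storage genes belonged to the cupin family of 7S and 12S globulins. AT2G28490 and AT1G03890 had 685.8 and 637.4 FPKM in clf-28, against 0.0888 and 0.0267 FPKM in wt. PAP85, a vicilin-like globulin, had 703.4 FPKM in clf-28 and 0.368 FPKM in wt. On the oil body, OLEO2 reached 2024 FPKM in clf-28 and 2.23 FPKM in wt, and OLEO4 reached 1445 FPKM in clf-28 and 3.62 FPKM in wt. The calcium-binding caleosin ATS1 had 585.9 FPKM in clf-28 and 0.028 FPKM in wt, and the steroleosin HSD1 had 293.2 FPKM in clf-28 and 0.175 FPKM in wt. OLEO3 was the only oil body gene at 10 FPKM or more in wt, with 588.2 FPKM in clf-28 and 10.03 FPKM in wt.

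Late embryogenesis abundant (LEA) proteins protect cells during drying, and 19 of 20 measured genes of this list were at least 2-fold higher in clf-28, none lower, with a median of 3.37, which was 5.67 with a pseudocount of 0.1 and 2.08 with one of 5. Their levels were spread more widely than those of the storage genes. PER1, a seed peroxiredoxin kept on this list, had 371.6 FPKM in clf-28 and 0.0385 FPKM in wt, and the LEA gene AT3G15670 had 132.1 FPKM in clf-28 and 0.0798 FPKM in wt. EM1, an Em protein, had 41.3 FPKM in clf-28 and 0.0105 FPKM in wt. Other members remained low in both libraries: GEA6 (EM6), known from late maturation, had 7.51 FPKM in clf-28 and 0.0405 FPKM in wt, and M17 had 5.12 FPKM in clf-28 and 0.371 FPKM in wt. AT3G22490 stayed under 1 FPKM in both and was not measured, at 0.581 FPKM in clf-28 and 0.00935 FPKM in wt.

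Of 16 measured regulators of seed maturation, 11 were at least 2-fold higher in clf-28 siliques and none was lower, with a median of 1.76, or 1.05 with a pseudocount of 5. The members did not move as 1 block. FUS3, a B3-domain regulator, had 78.8 FPKM in clf-28 and 2.98 FPKM in wt, and the authors' intervals were apart. ABI3, its B3 relative, had 41.9 FPKM in clf-28 and 1.09 FPKM in wt. NF-YB6 (LEC1-LIKE), a histone-fold subunit, had 74.0 FPKM in clf-28 and 3.29 FPKM in wt. By contrast LEC1, the related subunit known from early embryos, was near equal at 23.9 FPKM in clf-28 and 19.3 FPKM in wt. LEC2 was low in both, at 3.34 FPKM in clf-28 and 2.07 FPKM in wt, and ABI5, a bZIP factor of late maturation and germination, had 5.81 FPKM in clf-28 and 4.54 FPKM in wt.

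DPBF2 (bZIP67), a partner of NF-Y factors at storage genes, had 51.1 FPKM in clf-28 and 0.445 FPKM in wt. DOG1, which sets seed dormancy, had 30.7 FPKM in clf-28 and 0.0542 FPKM in wt, with the intervals apart. AGL15, an embryo MADS factor, had 48.5 FPKM in clf-28 and 4.61 FPKM in wt. WRI1, the activator of oil synthesis, differed less, with 52.9 FPKM in clf-28 and 14.9 FPKM in wt. HSFA9, a heat stress factor of late seeds, was under 1 FPKM in both libraries, at 0.292 FPKM in clf-28 and 0.00672 FPKM in wt.

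**Figure D3:**
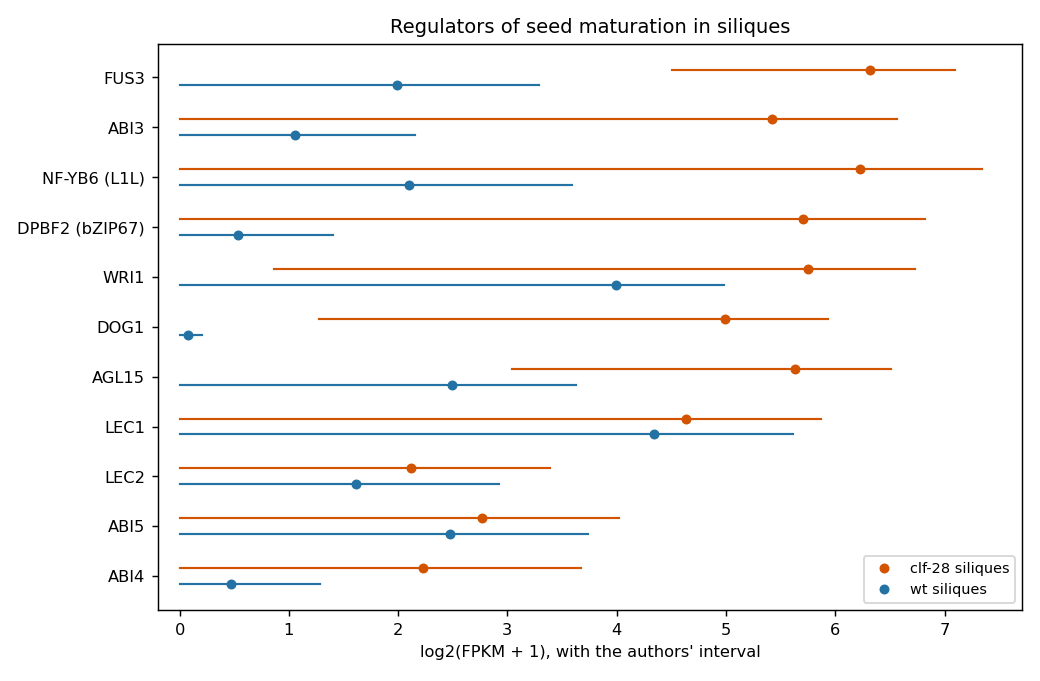
Level of 11 regulators of seed maturation in siliques as log2(FPKM + 1), with clf-28 (orange) above wt (blue) for each gene; points are single libraries and bars the authors' interval. The intervals of FUS3 and DOG1 were apart, with clf-28 higher, while LEC1, LEC2 and ABI5 were close to equal.

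Genes of oil synthesis were higher by smaller amounts. In plastid fatty acid synthesis 8 of 13 genes were at least 2-fold higher and none lower, with a median of 1.04, and in oil assembly 6 of 11 were higher and none lower, with a median of 1.01. The acyl carrier protein gene ACP1 had 312.5 FPKM in clf-28 and 67.1 FPKM in wt. BCCP2, a subunit of acetyl-CoA carboxylase, had 145.4 FPKM in clf-28 and 31.8 FPKM in wt. KCS18 (FAE1), which elongates seed fatty acids, had 122.4 FPKM in clf-28 and 0.331 FPKM in wt, and SUS2, a sucrose synthase, had 312.1 FPKM in clf-28 and 1.27 FPKM in wt, with the intervals apart. Other members of the 2 lists stayed within 2-fold, among them the desaturase FAD2, with 933.8 FPKM in clf-28 and 573.2 FPKM in wt.

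Transcripts of genes for sugar and amino acid supply to seeds were split in direction. Of 13 measured supply genes 5 were at least 2-fold higher and 2 lower, with a median of 0.34, or 0.76 with a minimum of 5 FPKM. The shares over all measured records were 11.4% and 8.0%. SWEET11, a sucrose exporter, had 346.8 FPKM in clf-28 and 33.1 FPKM in wt, and SAG29 (SWEET15), another sucrose exporter of seed coat and endosperm, had 293.7 FPKM in clf-28 and 10.3 FPKM in wt. The 2 lower genes were AAP8, an amino acid importer of young seeds, with 1.28 FPKM in clf-28 and 4.62 FPKM in wt, and the cell wall invertase cwINV4, with 4.63 FPKM in clf-28 and 12.8 FPKM in wt.

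In the seed coat, the flavonoid list and the mucilage and wall list had medians of opposite sign. Of 12 measured genes of the flavonoid pathway that makes proanthocyanidin, 9 were at least 2-fold lower in clf-28 and 1 was higher, with a median of -1.26. BAN, the anthocyanidin reductase, had 235.7 FPKM in clf-28 and 582.3 FPKM in wt. TT12, the transporter that loads the vacuole, had 11.8 FPKM in clf-28 and 50.1 FPKM in wt, and TT2, the MYB activator, had 9.11 FPKM in clf-28 and 28.5 FPKM in wt. The 1 higher gene was TT10, the laccase that oxidises and browns the deposited compounds later on, with 434.9 FPKM in clf-28 and 36.8 FPKM in wt and with the intervals apart. Mucilage and wall genes were the reverse, with 9 of 13 at least 2-fold higher, none lower and a median of 1.37. GATL5, which acts in pectin synthesis, had 108.6 FPKM in clf-28 and 13.0 FPKM in wt, and MUM2, a galactosidase that matures mucilage, had 88.6 FPKM in clf-28 and 32.2 FPKM in wt.

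Among 15 measured endosperm regulators, 7 were at least 2-fold lower and 4 at least 2-fold higher in clf-28, with a median of -0.81, which was -1.41 with a pseudocount of 0.1 and -0.34 with one of 5. The lower ones were mostly imprinted or type I MADS genes of the young endosperm. MPC had 3.64 FPKM in clf-28 and 17.1 FPKM in wt, FWA had 3.73 FPKM in clf-28 and 11.3 FPKM in wt, and PHE1, a textbook Polycomb target of the endosperm, had 4.16 FPKM in clf-28 and 12.3 FPKM in wt. The higher ones were genes of the zone between embryo and endosperm or of seed growth. RGE1 (ZHOUPI), which drives endosperm breakdown, had 15.1 FPKM in clf-28 and 6.79 FPKM in wt, and its target ALE1, a subtilisin protease of the embryo cuticle, had 19.1 FPKM in clf-28 and 5.04 FPKM in wt. All 14 measured mitotic genes stayed within 2-fold, with a median of 0.33.

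**Figure D4:**
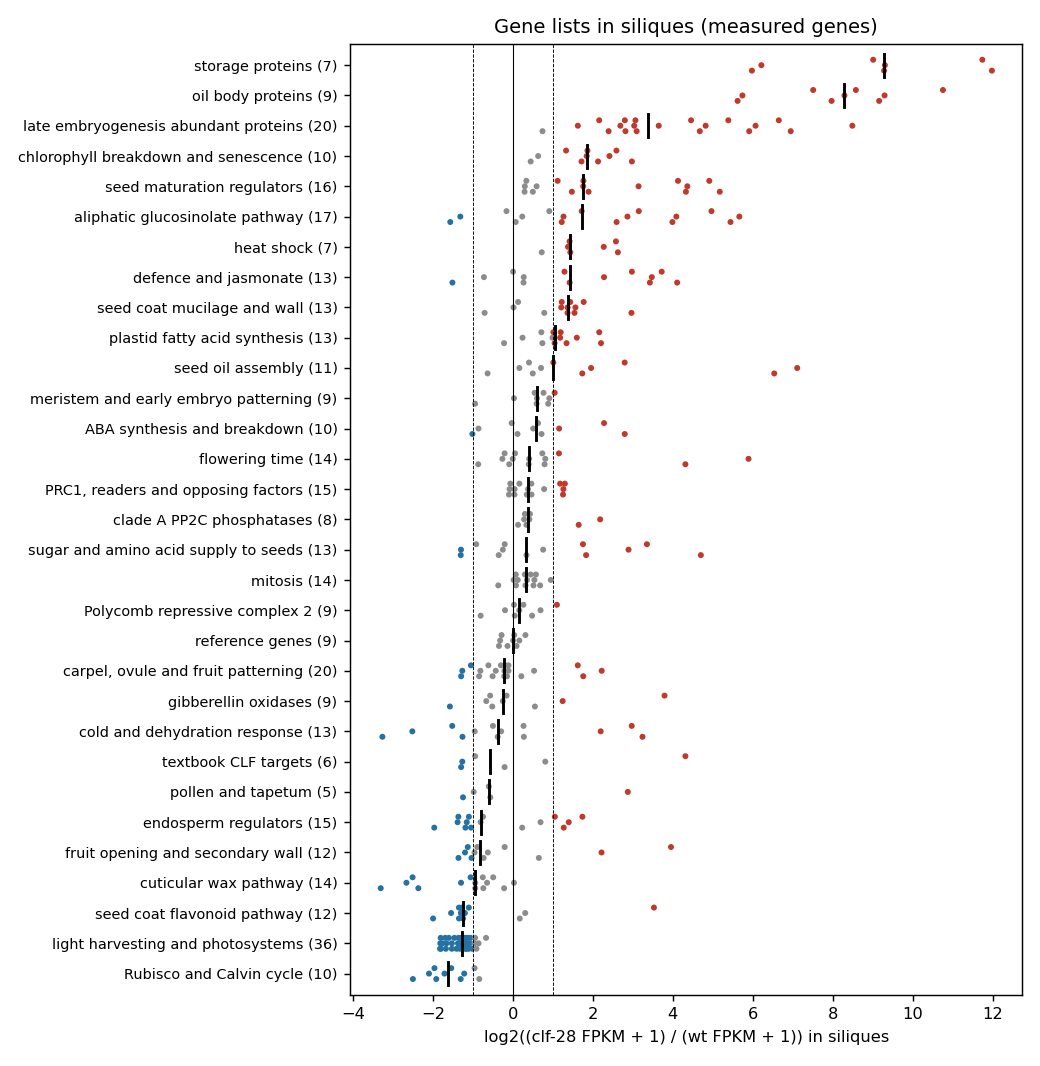
Log2 ratio of clf-28 to wt siliques for each measured gene (points) of 31 lists with at least 5 measured genes, ordered by their medians (black bars), with the number of measured genes in brackets; red points are at least 2-fold higher in clf-28, blue points at least 2-fold lower, and dashed lines mark 2-fold. Storage and oil body lists stood at medians of 9.28 and 8.29, and the light harvesting and Calvin cycle lists at -1.27 and -1.62.

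Photosynthesis transcripts, known from the green fruit wall and green embryos, were lower in clf-28 siliques as a group. In light harvesting and the photosystems 31 of 36 measured genes were at least 2-fold lower and none higher, with a median of -1.27, against 8.0% and -0.01 over all records. LHCB3, an antenna protein, had 1064 FPKM in clf-28 and 3767 FPKM in wt, and the photosystem I subunit PSAN had 395.5 FPKM in clf-28 and 1378 FPKM in wt. The range of the list was narrow, between -1.82 (LHCB3) and -0.67 (FNR1). In Rubisco and the Calvin cycle 8 of 10 genes were at least 2-fold lower, with a median of -1.62. RBCS3B, a Rubisco small subunit, had 1338 FPKM in clf-28 and 5053 FPKM in wt, and the carbonic anhydrase CA1 had 260.3 FPKM in clf-28 and 1478 FPKM in wt. Close copies within the RBCS and LHCB families make the split of reads between them uncertain.

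Chlorophyll breakdown and senescence genes stood the other way, with 8 of 10 at least 2-fold higher, none lower and a median of 1.86. NYE1 (SGR1), which removes magnesium from chlorophyll, had 62.3 FPKM in clf-28 and 16.6 FPKM in wt. The cysteine protease SAG12 had 65.1 FPKM in clf-28 and 19.1 FPKM in wt, and the nuclease BFN1 had 50.8 FPKM in clf-28 and 8.72 FPKM in wt. Fruit opening genes were split. ADPG1 and QRT2, polygalacturonases that loosen cell walls at separation zones, were higher, at 83.1 and 5.55 FPKM in clf-28 and 4.43 and 0.409 FPKM in wt. The secondary wall genes were lower, including the cellulose synthase IRX1 with 47.8 FPKM in clf-28 and 110.8 FPKM in wt, and the laccase LAC17 with 43.8 FPKM in clf-28 and 90.7 FPKM in wt. Over the 12 genes of that list 2 were at least 2-fold higher and 4 lower.

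Floral and fruit identity genes were not higher in clf-28 siliques as a group. Of 20 measured genes for carpel, ovule and fruit patterning, 3 were at least 2-fold higher and 3 lower, with a median of -0.21. These counts are near the shares over all measured records, 11.4% higher and 8.0% lower. The lower ones were AG, with 12.4 FPKM in clf-28 and 31.1 FPKM in wt, SEP3, with 75.3 FPKM in clf-28 and 186.0 FPKM in wt, and STK, the ovule MADS gene, with 88.5 FPKM in clf-28 and 184.3 FPKM in wt. The higher ones were SPT, a bHLH factor of the carpel margin, and the polarity genes YAB3 and AFO (FIL). YAB3 had 12.6 FPKM in clf-28 and 1.93 FPKM in wt, but several records name this gene and its value is uncertain. Among 6 measured textbook CLF targets, 1 was at least 2-fold higher and 2 lower. That 1 was FLC, the flowering repressor that is reset in the embryo, with 31.7 FPKM in clf-28 and 0.643 FPKM in wt. FLC was also higher in clf-28 in roots (13.4 against 2.56 FPKM), leaves (16.8 against 2.61 FPKM) and flowers (6.36 against 3.73 FPKM). By the test described further on, its silique effect did not differ from the other organs past the threshold (limma adjusted p = 0.17). FT, the florigen, was high in both, with 133.4 FPKM in clf-28 and 154.0 FPKM in wt.

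Most measured genes of the hormone lists stayed within 2-fold. E12A11 (MFT), a relative of FT that acts in seed germination, had 117.4 FPKM in clf-28 and 0.995 FPKM in wt. For abscisic acid, the synthesis genes NCED6 and NCED9, known from endosperm and seed coat, had 11.1 and 8.10 FPKM in clf-28, against 1.49 and 0.311 FPKM in wt. The list of synthesis and breakdown had 3 of 10 genes at least 2-fold higher and 1 lower. Among clade A PP2C phosphatases, which switch off the abscisic acid signal, 2 of 8 were at least 2-fold higher: the seed member AHG1, with 3.77 FPKM in clf-28 and 0.0516 FPKM in wt, and HAI1, with 115.3 FPKM in clf-28 and 36.2 FPKM in wt. All 8 had a positive ratio, with a median of 0.38. For gibberellin, GA20OX3 had 160.8 FPKM in clf-28 and 10.7 FPKM in wt, and 2 of 9 measured oxidases were at least 2-fold higher and 1 lower. Over all measured records 11.4% were higher and 8.0% lower, so these short hormone lists stand only a few genes from that share.

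Stress lists differed in direction. Of 13 defence and jasmonate genes, 8 were at least 2-fold higher and 1 lower, with a median of 1.42, or 2.28 with a minimum of 5 FPKM. WRKY33 and STZ (ZAT10), fast regulators of stress responses, had 47.0 and 40.9 FPKM in clf-28, against 2.64 and 2.77 FPKM in wt. LOX2, a jasmonate synthesis enzyme of green tissue, was lower, with 257.7 FPKM in clf-28 and 736.5 FPKM in wt. In the heat shock list, 6 of 7 measured genes were at least 2-fold higher, among them the seed-expressed HSP17.4, with 6.61 FPKM in clf-28 and 0.233 FPKM in wt. The cold and dehydration list split, with 3 of 13 higher and 4 lower. COR15A, a chloroplast protein of cold acclimation, had 7.17 FPKM in clf-28 and 77.4 FPKM in wt, while the dehydrin XERO1, known from seeds, had 16.7 FPKM in clf-28 and 1.26 FPKM in wt.

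Markers of other material were checked in the same libraries. Pollen and tapetum genes had 5 of 10 members measured, with 1 at least 2-fold higher (GRP17, an oleosin of the pollen coat) and 1 lower, and their summed FPKM was 29.7 in clf-28 and 49 in wt. Of the petal, stamen and floral meristem genes 3 of 5 were measured, with 1 at least 2-fold lower. Those 3 summed to 40.33 FPKM in clf-28 and 83.25 FPKM in wt. The meristem markers LFY and UFO were not measured, at 0.0377 and 0.128 FPKM in clf-28 and 0.0165 and 0.06 FPKM in wt. Of 6 root markers 2 were measured and stayed within 2-fold, with sums of 4.98 FPKM in clf-28 and 4.56 FPKM in wt. IRT1 and FRO2 were not measured, at 0.0321 and 0.104 FPKM in clf-28 and 0.0195 and 0.0868 FPKM in wt. All 9 reference genes were within 2-fold, with a median of 0.01.

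Genes outside the lists were named by size. Among records at 10 FPKM or more in wt, the largest ratios outside the lists were those of AT1G62080 and AT1G62060, neighbouring genes for uncharacterised proteins, with 6689 and 4172 FPKM in clf-28, against 11.6 and 93.0 FPKM in wt. AT1G04660, a glycine-rich protein, had 483.8 FPKM in clf-28 and 16.1 FPKM in wt, and AT3G62730, a desiccation-like protein, had 452.1 FPKM in clf-28 and 16.2 FPKM in wt. Among records at 10 FPKM or more in clf-28, the most negative ratios were those of GER3, a germin of the cell wall, with 19.2 FPKM in clf-28 and 245.0 FPKM in wt, and NEET, an iron-sulphur protein, with 10.9 FPKM in clf-28 and 120.3 FPKM in wt. CYP96A15 (MAH1), the alkane hydroxylase of stem wax, had 28.4 FPKM in clf-28 and 289.2 FPKM in wt, and MLP423 had 26.8 FPKM in clf-28 and 239.3 FPKM in wt. Among measured records the most abundant in wt, the lipid transfer protein gene LTP6, had 2474 FPKM in clf-28 and 9995 FPKM in wt.

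The 1 test that these single libraries allow asks whether the clf-28 effect in siliques differed from the mean effect in roots, leaves and flowers, with the spread taken from the other organs. In limma on log2(FPKM + 1) with 2 residual degrees of freedom, 989 of 24078 records (4.11%) had a higher silique effect and 693 (2.88%) a lower one at a Benjamini-Hochberg adjusted p under 0.05. All 9 oil body genes, 6 of 7 storage genes, 10 of 16 maturation regulators and 8 of 20 LEA genes passed with a higher silique effect. Many of these genes were near 0 FPKM in the other organs, where their effect could hardly vary. Their passing largely restates the silique ratio and is no separate support for it. For FUS3 the silique effect exceeded the others by 4.38 ± 0.21 on the log2 scale (SE; limma adjusted p = 0.0077), and for ABI3 by 4.40 ± 0.13 (SE; limma adjusted p = 0.0037). In the seed coat flavonoid list 4 of 12 passed with a lower silique effect and TT10 with a higher one, at 3.31 ± 0.25 (SE; limma adjusted p = 0.014). Among higher effects, the smallest p-values belonged to genes near 0 in every other organ: AT2G41390, a protein of the pollen allergen Ole e 1 family, had 438.6 FPKM in clf-28 siliques and 0 FPKM in wt siliques, and the cupin AT3G04170 had 378.9 FPKM in clf-28 and 0 FPKM in wt. No light harvesting gene passed in limma among 28 tested, also at an unadjusted p under 0.05 (0 of 28), and the list's median was -1.27 in siliques and -1.38 in roots. The list's summed FPKM was 20770 in clf-28 siliques, or 2.96% of the library, and 53340 in wt siliques, or 7.45%.

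This p measures spread over organs, not over plants, and it favours genes that are silent outside siliques, since their effect there cannot vary. FUS3 had at most 0.177 FPKM in roots and leaves, with 2.30 FPKM in clf-28 flowers and 2.87 FPKM in wt flowers, and ABI3 had at most 0.0998 FPKM outside siliques. Their small SE and p rest on a spread that such low levels hold down. Of the storage and oil body genes tested, only OLEO4 was expressed in every organ, and it passed among those records too. Among records expressed in every organ 58 had a higher silique effect and 8 a lower one, and the higher ones included AGP14, an arabinogalactan protein, at 282.4 FPKM in clf-28 and 4.57 FPKM in wt, AIL5, an AP2 factor of embryos, at 31.0 FPKM in clf-28 and 1.15 FPKM in wt, and ACP1. Without the leaf pair no record passed in limma, against 2304 above and 1849 below zero with p under 0.05 before adjustment. Without the flower pair none passed either, against 2558 and 2459 unadjusted. Without the root pair 134 passed as higher and none as lower, against 2368 and 2018 unadjusted.

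The same genes in the other organs show where siliques stood apart and where they did not. The cold and dehydration list had medians of 1.13 in roots, 3.45 in leaves and 0.23 in flowers, against -0.38 in siliques. The median of the PP2C list was 0.79 in roots and 2.14 in leaves, against 0.14 in flowers and 0.38 in siliques. The defence and jasmonate list was higher in roots (1.83), leaves (1.28) and siliques (1.42) and near equal in flowers (0.08). Mitotic genes had negative medians in roots (-0.58), leaves (-0.65) and flowers (-0.19) and a positive one in siliques (0.33). The LEA list had medians of -0.722 in roots, 0.499 in leaves and 0.107 in flowers, against 3.37 in siliques. Some members rose elsewhere too. LEA7 had 181.9 FPKM in clf-28 leaves and 0.432 FPKM in wt leaves, a log2 ratio of 6.997 against 4.819 in siliques (limma adjusted p = 0.88). LEA4-5 had a log2 ratio of 4.465 in leaves and 3.094 in siliques. Storage genes were low outside siliques. SESA5, for example, had 0.00675 FPKM in clf-28 roots and 10.8 FPKM in wt roots, the highest level of that gene outside siliques.

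**Figure D5:**
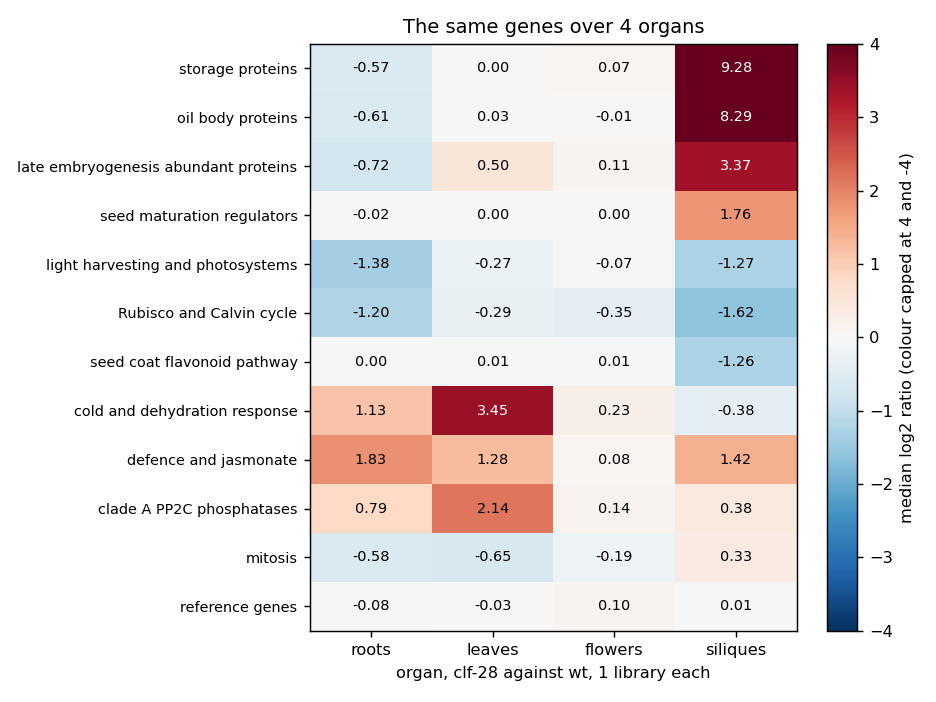
Median log2 ratio of clf-28 to wt over the genes of 12 lists in 4 organs, using the genes measured in siliques that had the status OK in the organ shown; each organ has 1 library of each genotype, and colours are capped at 4 and -4. The storage list had a median of 9.28 in siliques and -0.57 in roots, where only 3 of its 7 genes reached 1 FPKM. The light harvesting list had medians of -1.27 in siliques and -1.38 in roots.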

How the data were processed

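Per the labels' protocols, total RNA was treated with DNase I and made into libraries with a TruSeq RNA kit for Illumina sequencing, and the submitters' processing notes name TopHat, Cufflinks and TAIR10, without versions. The deposited table gives FPKM with lower and upper bounds and a status for each record and library, per the file headers; no counts or depths are used here. Ratios were computed with a pseudocount of 1 FPKM. One record stood for each gene, the first that overlaps its RefSeq gene, and 98.0% of matched single-gene records did overlap. The test of siliques against other organs used limma 3.58.1 in R 4.3.3 with a mean-variance trend, an organ block and Benjamini-Hochberg adjustment; it was also tested on simulated data. Genes and gene lists were chosen with earlier results of these data known, and 2 lists, for glucosinolates and wax, after their values were seen. Outside the lists, genes were named for the largest ratios at 10 FPKM or more in the library with the lower level, for the smallest p, or for abundance; further genes among these were chosen after their values were seen. Single libraries allow no p between genotypes within siliques.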

Additional observations from a re-analysis of the deposited data

Results flagged for a closer look

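These values drew a closer look because clf-28 stood on opposite sides of wt in siliques and in another organ, each with 1 library per genotype, so the differences between organs were not tested unless stated. Over the 7 storage genes measured in siliques, the median log2 ratio was 9.28 in siliques and -0.57 in roots. Only 3 of these reached 1 FPKM in a root library, and their root median was -3.05. Over the 9 oil body genes the median was 8.29 in siliques and -0.61 in roots, or -1.72 over the 5 that reached 1 FPKM in a root library. Over the 17 aliphatic glucosinolate genes, a list chosen after its values were seen, the median was 1.72 in siliques and -0.41 in roots. It was -1.02 in roots over the 13 that reached 1 FPKM in a root library. Root ratios of the remaining genes of these lists rest on levels under 1 FPKM in both root libraries.

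AG had a log2 ratio of -1.265 in siliques, against 1.104 in roots and 4.35 in leaves. The root levels of AG were near the floor, at 1.15 FPKM in clf-28 and 0 FPKM in wt. SEP3 had -1.294 in siliques and 3.10 in leaves. In limma neither gene's silique effect differed from the mean of the other organs past the threshold: the difference was -3.14 for AG (limma adjusted p = 0.47) and -2.33 for SEP3 (limma adjusted p = 0.52). Across all 24078 records tested in that way, 989 had a higher and 693 a lower clf-28 effect in siliques than in the mean of the other organs.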

How the results depend on the processing

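With a pseudocount of 5 FPKM, 1271 records were at least 2-fold higher and 902 at least 2-fold lower in clf-28 siliques. The other settings run for these counts (a pseudocount of 0.1, a minimum of 5 FPKM, no minimum, upper-quartile scaling, equal sums without the seed lists, a shift to a median of 0, and single-gene records) kept both within 1.5 times; the setting with single-gene records was added after the data were seen. No list median past 1 or -1 turned its sign, and 4 of 98 such alternatives came inside 1: seed oil assembly with 0.89 (pseudocount 5) and 0.95 (upper quartile), plastid fatty acid synthesis with 0.98 (upper quartile) and heat shock with 0.98 (pseudocount 5). Some list medians moved by over 1.5 times, and examples follow. Without a minimum, the median of textbook CLF targets turned from -0.576 to 0.099, and that of petal, stamen and floral meristem genes from -0.889 to 0.03. Pollen and tapetum genes went from -0.602 to -0.143 without a minimum. Flowering time genes went from 0.402 to 0.054 with a minimum of 5 FPKM. Beside those given with the lists above, endosperm regulators had -0.46 with a minimum of 5 FPKM, heat shock had 2.32 with a pseudocount of 0.1 and 2.27 with a minimum of 5 FPKM, carpel and fruit patterning had -0.14 and mitosis 0.20 (pseudocount 5), and Polycomb repressive complex 2 had 0.10 (upper quartile). Reference genes had -0.05 under upper-quartile scaling. The test against other organs moved more. Records with a higher silique effect numbered 638 with a pseudocount of 0.1, 58 among records expressed in every organ (an alternative added after the data were seen), and 134 without roots, 0 without leaves and 0 without flowers. Those with a lower effect numbered 151 with a pseudocount of 0.1, 8 among records expressed in every organ, and 0 without roots, without leaves or without flowers. Beside these zeros, limma gave unadjusted p under 0.05 for 2304 higher and 1849 lower records without leaves, 2558 and 2459 without flowers, and 2018 lower without roots. Each of these fits has 1 residual degree of freedom. No paired analysis was possible because each genotype has 1 silique library. Wide intervals with a lower bound of 0 limit single genes, and no library can be left out within siliques.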

Other observations

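A set of 212 records stood at 10 FPKM or more in clf-28 siliques and under 1 FPKM in wt siliques, against 4 the other way round. Of the 212, 70 were under 1 FPKM in all 6 libraries of the other organs. The rest reached 1 FPKM in a root library (116), a flower library (70) or a leaf library (50), with overlap between these counts.

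Measured single-gene records were taken in chromosome order, and genes without such a record were passed over. In that order, genes at least 8-fold higher in clf-28 siliques followed each other at 4 places, with 3 or more in a row. On chromosome 1, AT1G14930, AT1G14940 and AT1G14950 (polyketide cyclase family) lay between 30.6 and 489.0 FPKM in clf-28 and at most at 0.0208 FPKM in wt. AT1G62060, AT1G62070 and AT1G62080, uncharacterised proteins, lay between 1070 and 6690 FPKM in clf-28 and at most at 93.0 FPKM in wt. Close by, AT1G62210, AT1G62220, AT1G62225 and AT1G62240 lay between 62.0 and 1020 FPKM in clf-28 and at most at 0.575 FPKM in wt. On chromosome 5, the hydroxyproline-rich genes AT5G09480, PELPK2 and PELPK1 lay between 27.5 and 201.0 FPKM in clf-28 and at most at 3.31 FPKM in wt. Neighbours of this kind can be near-identical copies, and the split of reads between them is uncertain.

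A pair of lists was added after their values were seen. Aliphatic glucosinolates are sulphur-containing defence compounds that Arabidopsis stores in seeds. Of 17 measured genes of the pathway 11 were at least 2-fold higher in clf-28 siliques and 2 lower, with a median of 1.72. BCAT4, which starts the elongation of methionine, had 123.0 FPKM in clf-28 and 6.81 FPKM in wt, and CYP79F1, the first core enzyme, had 96.1 FPKM in clf-28 and 4.72 FPKM in wt. BZO1, the benzoyl ligase that makes seed glucosinolates, had 31.2 FPKM in clf-28 and 0.0309 FPKM in wt. The 2 lower genes were the myrosinases TGG1 and TGG2, with 346.8 and 594.9 FPKM in clf-28, against 864.5 and 1764 FPKM in wt. The cuticular wax list had 6 of 14 genes at least 2-fold lower and none higher, with a median of -0.94. CER1, the alkane-forming enzyme, had 101.3 FPKM in clf-28 and 525.3 FPKM in wt, and CER4, the alcohol-forming reductase, had 17.77 FPKM in clf-28 and 117.8 FPKM in wt.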
